A study of Mus musculus with 7 samples.

Results

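The regions described here are distal enhancer candidates that mouse chondrocytes and dermal fibroblasts have in common. They were selected on the H3K27ac peak lists themselves: a peak of chondrocyte H3K27ac replicate 1 was taken when it overlapped by at least 1 bp a peak in each of 3 other H3K27ac lists, from dermal fibroblasts, wild-type chondrocytes and enhancer-deleted chondrocytes, and when it reached no protein-coding transcription start site (TSS) within 1 kb. This gave 3573 shared distal peaks among 15800 distal and 25580 total replicate 1 peaks on chromosomes 1 to 19 and X. The share of all distal replicate 1 peaks with a partner in the 3 lists was 22.6%, which is the rule itself and is read as a description. Presence, rank and width in those 4 lists were therefore used by the choice, whereas H3K4me2, chondrocyte H3K27ac replicate 2, the genome sequence and the annotation were not.

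The series held 7 ChIP-seq libraries, of which 6 had peak lists and 1, the input, was not analysed here. Primary chondrocytes came from rib cartilage of newborn mice and were used within a few passages of isolation, and primary dermal fibroblasts came from the dorsal skin of newborns. H3K27ac was profiled in chondrocytes (2 replicates), fibroblasts, wild-type (WT) chondrocytes and chondrocytes of E160(delta/delta);E308(delta/delta) mice, in which CRISPR removed a pair of enhancers far upstream of Sox9 on a C57BL/6J background, and H3K4me2 was profiled once in chondrocytes. The WT and deletion animals were littermates. Except for chondrocyte H3K27ac, each group was 1 library, so no test between groups was possible, and shares carry exact Clopper-Pearson 95% intervals that cover counting error only and treat neighbouring peaks as independent.

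Acetylation of lysine 27 on histone H3 marks active enhancers and promoters, and methylation of lysine 4 to the dimethyl state marks both active and primed ones. Enhancers are in general more specific to a cell type than promoters are, and can lie far from the genes they act on. Cartilage and dermis are both connective tissues of mesenchymal origin, with chondrocytes making a matrix of type II collagen and aggrecan and dermal fibroblasts one of type I and III collagen.

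The 300 bp at the centre of 6 shared distal peaks, read from the forward strand of mm9 (NCBIM37), show the sequence features that the counts below describe. The first 4 were chosen because they hold an AP-1 match, and capitals mark its 7 bases. A match here is TGANTCA, with N any base, a loose form of the palindromic site of Fos and Jun dimers. The Zmiz1 match, TGATTCA, is not the stricter site TGACTCA or its reverse complement TGAGTCA. In the last 2, both in introns and close to an annotated transcript start, capitals mark CG dinucleotides, which are dense at many vertebrate promoters and rare elsewhere. Of the first 4, the Zmiz1 peak also overlapped an annotated transcript start. The windows were near Zmiz1 (chr14:26198196-26198495), Zfp239 (chr6:117829742-117830041), Myc (chr15:62400725-62401024), C130026L21Rik (chr5:112228597-112228896), Wdtc1 (chr4:132894728-132895027) and N4bp2 (chr5:66155935-66156234).
Zmiz1: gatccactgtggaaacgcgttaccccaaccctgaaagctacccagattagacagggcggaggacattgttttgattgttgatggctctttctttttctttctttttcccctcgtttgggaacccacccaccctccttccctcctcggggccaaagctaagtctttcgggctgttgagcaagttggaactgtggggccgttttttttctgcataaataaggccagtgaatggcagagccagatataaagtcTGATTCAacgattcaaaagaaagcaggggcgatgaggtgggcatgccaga
Zfp239: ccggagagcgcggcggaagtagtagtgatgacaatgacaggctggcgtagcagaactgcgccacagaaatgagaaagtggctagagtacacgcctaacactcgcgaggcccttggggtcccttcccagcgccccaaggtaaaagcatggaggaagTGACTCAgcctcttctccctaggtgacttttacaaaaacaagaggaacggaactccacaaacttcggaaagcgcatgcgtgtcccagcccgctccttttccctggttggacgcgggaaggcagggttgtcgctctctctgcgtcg
Myc: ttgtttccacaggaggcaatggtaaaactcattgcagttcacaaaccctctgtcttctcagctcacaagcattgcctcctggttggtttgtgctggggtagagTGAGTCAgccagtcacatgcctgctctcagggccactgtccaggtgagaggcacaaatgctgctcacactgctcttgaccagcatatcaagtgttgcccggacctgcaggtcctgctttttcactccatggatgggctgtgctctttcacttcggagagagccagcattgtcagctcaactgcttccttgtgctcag
C130026L21Rik: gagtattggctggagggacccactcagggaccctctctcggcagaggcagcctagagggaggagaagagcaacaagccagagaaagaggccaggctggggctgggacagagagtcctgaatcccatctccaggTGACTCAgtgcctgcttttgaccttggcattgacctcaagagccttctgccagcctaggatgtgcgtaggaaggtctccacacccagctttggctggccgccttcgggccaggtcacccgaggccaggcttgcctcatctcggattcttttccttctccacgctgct
Wdtc1: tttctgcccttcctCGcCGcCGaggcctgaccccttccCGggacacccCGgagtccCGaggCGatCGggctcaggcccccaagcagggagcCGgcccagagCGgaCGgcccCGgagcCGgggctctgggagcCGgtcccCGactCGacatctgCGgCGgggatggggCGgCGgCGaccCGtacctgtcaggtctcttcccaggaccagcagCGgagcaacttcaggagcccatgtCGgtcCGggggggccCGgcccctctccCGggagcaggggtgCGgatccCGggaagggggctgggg
N4bp2: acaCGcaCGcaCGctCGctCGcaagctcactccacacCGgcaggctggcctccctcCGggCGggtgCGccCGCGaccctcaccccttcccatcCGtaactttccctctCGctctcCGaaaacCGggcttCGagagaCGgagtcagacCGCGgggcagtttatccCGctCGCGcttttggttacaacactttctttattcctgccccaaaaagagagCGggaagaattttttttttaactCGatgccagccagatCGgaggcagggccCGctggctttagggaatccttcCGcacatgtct

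The libraries and cell labels were checked first. Promoter H3K27ac, meaning a peak within 1 kb of the TSS, was present at 8 of 10 chondrocyte markers in replicate 2, WT and deletion chondrocytes, at 5 of 10 in replicate 1 (Sox9, Col2a1, Matn1, Sox5 and Sox6 had none) and at 1 of 10, Sox9, in fibroblasts. Fibroblast markers were marked at 7 of 10 promoters in fibroblasts, where Col1a1, Col1a2 and Col3a1 had no peak, and at 5 to 8 of 10 in the chondrocyte H3K27ac lists. None of 14 markers of blood, epidermis, endothelium, muscle and nerve with an annotated promoter had a peak in any H3K27ac list, and H3K4me2 marked 5 of the 14. Ranks within replicate 1 stood apart from the other chondrocyte lists. Over the 3573 members the Spearman correlation of the rank was 0.94 between WT and deletion and 0.55 between WT and fibroblasts. It was 0.35 between replicate 1 and WT and 0.26 between replicate 1 and fibroblasts. Over the 1949 members matched in replicate 2, as described below, it was 0.37 between the 2 replicates and 0.78 between WT and replicate 2. These correlations are descriptions over peaks that share a list, with no test. Because of this, values that do not rest on replicate 1 are given beside the main ones.

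Within the lists that chose them, the shared peaks took a wide range of strengths. Rank is given as the percentage of the list with a score at least as high, so that a low value is a strong peak. The median rank of the 3573 members was 35.7% in replicate 1, 45.3% in fibroblasts, 25.8% in WT and 35.9% in the deletion chondrocytes, and 79 of them (2.21%) were in the top 10% of all 4 lists. Their median width was 1268 bp in replicate 1 (quartiles 774 to 1951 bp, range 208 to 8152 bp), 1195 bp in fibroblasts, 1621 bp in WT and 1056 bp in the deletion chondrocytes. The fibroblast peak covered a median of 77.3% of the member and the WT peak 91.7%, and 69 members (1.93%) overlapped 1 or more lists by less than 100 bp. Seen from the other side, 3349 of 10081 distal fibroblast peaks (33.2%) overlapped a member. The members thus ranged from sites high in all lists to sites that only just met the rule.

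The comparison set was the 3891 chondrocyte-only distal peaks, which overlapped WT and deletion peaks but no fibroblast peak and were chosen by the same lists. In it the median width was 1091 bp and the median rank in replicate 1 was 51.6%, so the shared peaks were wider and stronger to begin with. The 1 kb limit separated close neighbours: just past it were the members near Uck2 and N4bp2, 1.002 and 1.006 kb from the TSS, and just short of it were peaks 990 bp from the TSS of Abi3bp and 980 bp from that of Ddx17. In the 100 bp beyond the limit there were 30 members, and in the 100 bp within it 31 peaks that met the rest of the rule.

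H3K4me2, which the rule did not use, lay on most shared distal peaks. It overlapped 3335 of 3573 (93.3%, interval 92.5 to 94.1%), against 3484 of 3891 chondrocyte-only peaks (89.5%, 88.5 to 90.5%) and 86.5% of all distal replicate 1 peaks. Shared peaks at promoters were at 96.4% (96.0 to 96.8%). The intervals of the shared and chondrocyte-only peaks did not overlap. The H3K4me2 list was long, with 66355 peaks against 25580 in replicate 1, and with only as many of its highest-scoring peaks as replicate 1 has, the shares were 61.7% and 45.3%. The shared peaks scored higher, and the gap differed between score classes. When all distal replicate 1 peaks were divided by score into 4 classes of equal size, H3K4me2 lay on 86.6% (82.6 to 90.0%) of the shared peaks in the lowest class and on 80.3% (76.9 to 83.3%) of the chondrocyte-only ones. These intervals overlapped slightly. In the highest class, which held 1835 of the members, the shares were 96.5% (95.6 to 97.3%) and 97.3% (96.2 to 98.1%), and their intervals overlapped. More than 1 H3K4me2 peak lay on 6.30% (5.52 to 7.14%) of members and 2.31% (1.86 to 2.84%) of chondrocyte-only peaks. Over all distal replicate 1 peaks the share was 2.78%. Where no annotated transcript start lay within 1 kb, it was 3.82% (3.11 to 4.64%) in members and 2.27% (1.80 to 2.82%) in chondrocyte-only peaks. The members were also wider, as given above. The median width of the H3K4me2 peak was 2140 bp in members and 1948 bp in chondrocyte-only peaks. Without replicate 1, taking WT distal peaks with a fibroblast and a deletion peak, H3K4me2 lay on 90.4% (89.5 to 91.3%) of 4272, against 75.02% (74.0 to 76.0%) of 7383 with a deletion and no fibroblast peak.

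**Figure D1:**
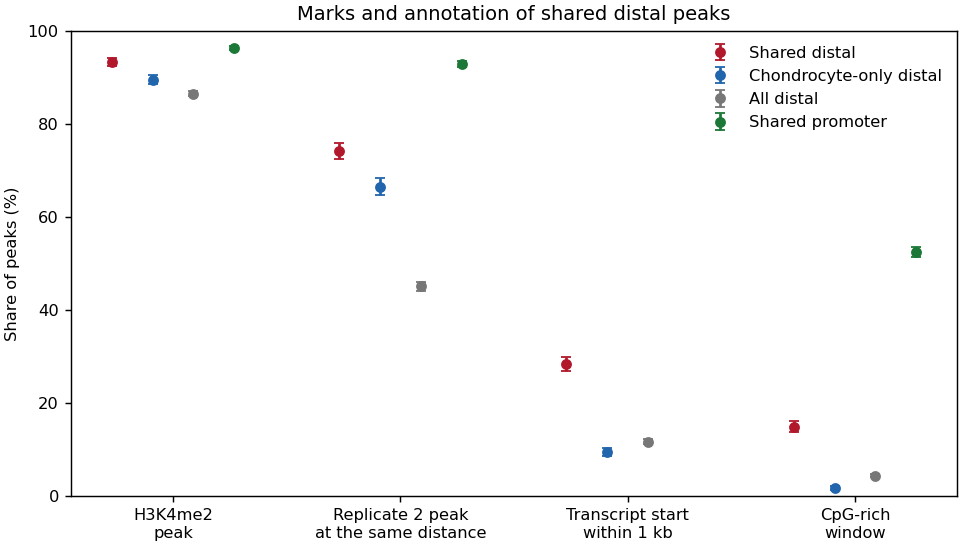
Share of peaks (%) with an H3K4me2 peak, with a replicate 2 peak at the same distance from the TSS, with an annotated transcript start within 1 kb and with a CpG-rich window, for shared distal, chondrocyte-only distal, all distal and shared promoter peaks; points are shares and bars exact 95% intervals. Shared distal peaks sat above chondrocyte-only distal peaks in all 4 measures, with the smallest gap for H3K4me2 (93.3% against 89.5%).

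The 238 members without H3K4me2 included some of high score. The strongest was near Cyp24a1, the vitamin D 24-hydroxylase, although it lay within the Pfdn4 gene (chr2:170336657-170337420), and its ranks were 0.618% in replicate 1, 0.802% in fibroblasts, 0.160% in WT and 0.280% in the deletion chondrocytes. Those near Slc13a4 (chr6:35202667-35205197), a sulfate transporter, and Rassf1 (chr9:107456814-107458771), a tumour suppressor, followed, with ranks of 0.758% and 2.96% in replicate 1. All 3 overlapped the start of an annotated transcript. Of the 5 widest members, those near Tcf4, 1810013L24Rik and Mbnl2 had no H3K4me2 peak, whereas those near Prrx1, a limb mesenchyme homeobox factor, and Mbnl1, a splicing regulator, had one.

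Chondrocyte H3K27ac replicate 2, also outside the rule, was compared through distances, since its list is on another genome build and no coordinate was converted. A member counted as matched when replicate 2 had a peak at the same signed distance, within 1 kb, from the TSS of the same gene, for genes placed in both builds and peaks within 100 kb. Of 2627 such members 1949 were matched (74.2%, 72.5 to 75.9%), against 1690 of 2539 chondrocyte-only peaks (66.6%, 64.7 to 68.4%) and 45.1% of all distal replicate 1 peaks. In the lowest score class the shares were 61.7% (55.6 to 67.6%) and 50.1% (45.1 to 55.2%), and in the highest 81.3% (79.1 to 83.3%) and 82.8% (79.9 to 85.4%), so that the intervals again overlapped among the strongest peaks. Matched members had a median rank of 39.1% in replicate 2 and matched chondrocyte-only peaks one of 55.9%.

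**Figure D2:**
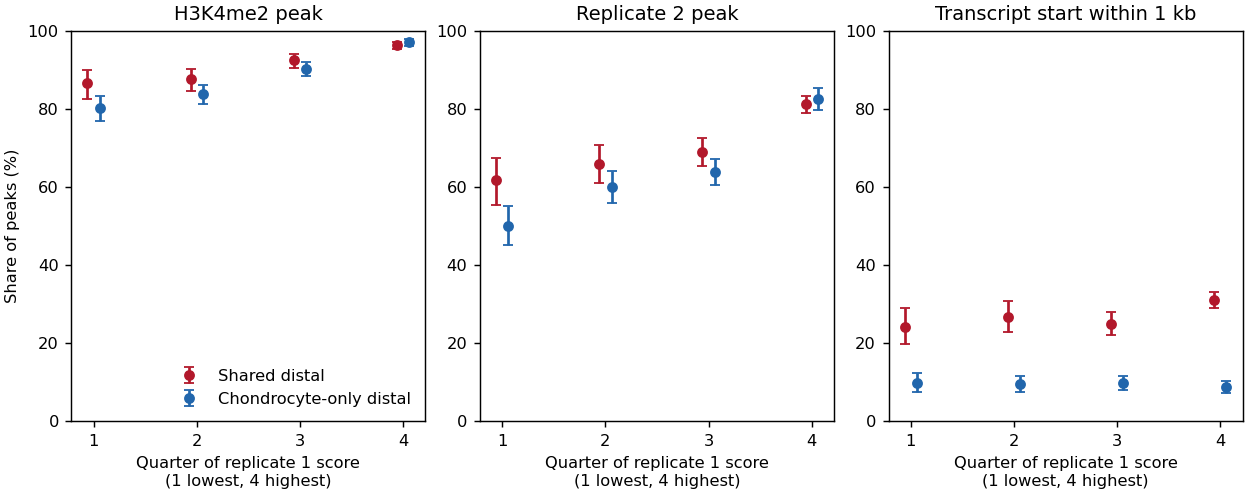
Share of peaks (%) with H3K4me2, with a replicate 2 match and with a transcript start within 1 kb, by class of replicate 1 score (4 classes of equal size over all distal peaks, 1 lowest), for shared and chondrocyte-only distal peaks; bars are exact 95% intervals. The H3K4me2 and replicate 2 shares rose with score in both sets and met in the highest class (96.5% and 97.3% for H3K4me2), while the transcript start share stayed apart in every class.

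Shared distal peaks lay closer to genes than chondrocyte-only peaks. The median distance from the peak edge to the nearest protein-coding TSS was 27.7 kb (27663 bp, interval 26331 to 29152, quartiles 9478 to 69020 bp) against 41.6 kb (41612 bp, 39064 to 43882), and 40502 bp over all distal peaks. Within 10 kb were 25.9% (24.5 to 27.4%) of the shared and 16.2% (15.1 to 17.4%) of the chondrocyte-only peaks. Beyond 100 kb the shares were 16.4% (15.2 to 17.7%) and 25.7% (24.4 to 27.1%). Over all distal peaks they were 16.6% within 10 kb and 25.2% beyond 100 kb. The difference between shared and chondrocyte-only peaks kept its direction without replicate 1, with medians of 29882 and 40472 bp in the WT peaks. The shared peaks scored higher in replicate 1, and distances were not compared within score classes. The most distant members were a pair 1170 and 1176 kb upstream of Cited2, a CBP/p300-interacting transcriptional regulator, and 1 that lay 1324 kb upstream of Zeb2, a zinc finger repressor, and overlapped another annotated transcript start.

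**Figure D3:**
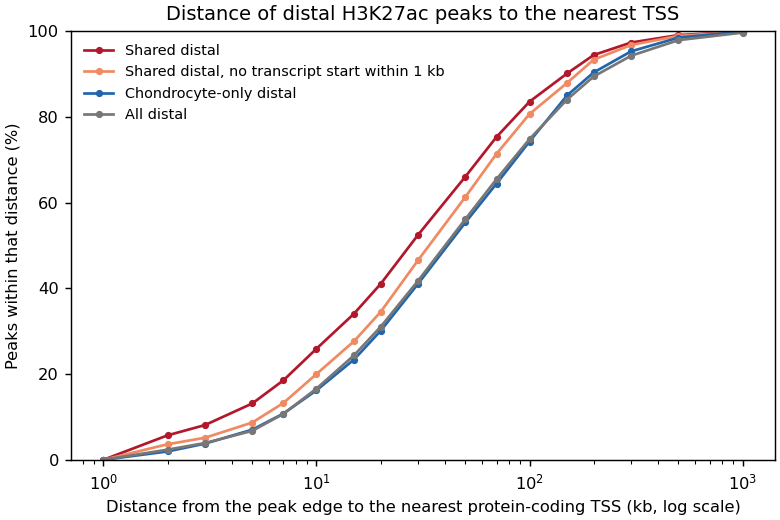
Cumulative share of peaks (%) within a given distance (kb, log scale) of the nearest protein-coding TSS, for the sets named in the legend. The curve of the shared distal peaks lay above that of the chondrocyte-only peaks up to 500 kb, with 25.9% against 16.2% within 10 kb, and both were at 99.9% at 1000 kb.

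Distance was measured to 1 TSS per protein-coding gene, the 5′ end of the annotated gene, and other starts lay near a part of the members. A start of any annotated transcript, which adds the inner starts of protein-coding genes and non-coding transcripts, lay within 1 kb of 1010 members (28.3%, 26.8 to 29.8%), against 9.35% (8.46 to 10.3%) of the chondrocyte-only peaks and 11.6% of all distal replicate 1 peaks. For 770 of the 1010 it was a start of a protein-coding gene (21.6% of all members, against 6.89%). This gap was present in all 4 score classes, where the shares ran from 24.1% to 31.1% in the shared and from 8.69% to 9.79% in the chondrocyte-only peaks. These 1010 members ranked higher in fibroblasts (median 30.2%) and WT (16.2%) than the 2563 others (50.3% and 29.1%). In replicate 1 the medians were closer, at 30.3% and 37.5%. Of the 2563 members away from any transcript start, 55.8% were intergenic and 41.9% intronic, whereas the 3527 chondrocyte-only peaks of that kind were 44.4% and 53.3%. The median distance of those members to a protein-coding TSS was 33773 bp (31963 to 36822), still below the 44300 bp (42262 to 47257) of the chondrocyte-only peaks.

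CpG content followed the same division. A central window was called CpG-rich when its GC content was at least 50% and its ratio of observed to expected CG dinucleotides above 0.6, a level that the printed Wdtc1 and N4bp2 windows pass with 29 and 27 CG dinucleotides. The printed Zfp239 window, shown for its AP-1 match, passes it too, with 20. It was found in 527 members (14.7%, 13.6 to 16.0%), against 63 chondrocyte-only peaks (1.62%, 1.25 to 2.07%), 4.23% of all distal replicate 1 peaks and 52.4% of shared promoter peaks. Among members near a transcript start the share was 33.1%. Away from any, it was 7.53% (6.54 to 8.62%) against 1.02% (0.716 to 1.41%), so that the difference remained where no start was annotated.

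Sequence motifs were counted in the central 300 bp on both strands, and a match is a description of letters, not of binding. The AP-1 motif TGANTCA was in 13.2% (12.1 to 14.4%) of members, 13.0% (11.96 to 14.1%) of chondrocyte-only peaks, 13.4% of all distal replicate 1 peaks and 4.90% (4.45 to 5.39%) of shared promoter peaks, and the intervals of both kinds of distal peak overlapped. Away from transcript starts the share was 15.4% (14.0 to 16.8%) in members and 13.3% (12.2 to 14.5%) in chondrocyte-only peaks, with overlapping intervals. Without the CpG-rich windows it was 16.4% (14.9 to 17.9%) and 13.4% (12.3 to 14.6%), and these intervals did not overlap. Over all distal peaks of that kind it was 14.2%. Away from transcript starts, the stricter letters TGACTCA gave 11.04% (9.85 to 12.3%) and 8.45% (7.55 to 9.42%), which did not overlap. In the peaks away from starts, the GC box GGGCGG, bound by Sp and Klf factors, was in 12.02% (10.8 to 13.3%) of members and 5.64% (4.90 to 6.46%) of chondrocyte-only peaks, and the ETS motif CCGGAAG in 3.55% (2.87 to 4.34%) and 1.53% (1.15 to 1.99%). The SOX letters ACAAAG or ACAATG were in 31.6% (29.8 to 33.4%) and 34.4% (32.8 to 36.0%), and the NFI site TTGGCA in 17.4% (15.9 to 18.9%) and 20.2% (18.9 to 21.6%). The TEAD letters GGAATG, at 19.5% and 22.1%, and the RUNX letters TGTGGT, at 21.7% and 23.1%, were no more frequent in members. In the highest score class, AP-1 was in 17.9% (15.9 to 20.2%) of members away from starts and 14.4% (12.4 to 16.6%) of chondrocyte-only peaks, and in the lower 3 classes the shares lay within 1 point of each other. In windows away from starts that were not CpG-rich the GC box was still in 9.16% (8.02 to 10.4%) against 5.33% (4.61 to 6.13%). It was in 5.03% of all distal peaks of that kind. Away from starts, the windows of members had a median GC content of 49.0%, against 45.7% in chondrocyte-only peaks. Motif shares were not adjusted for it.

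**Figure D4:**
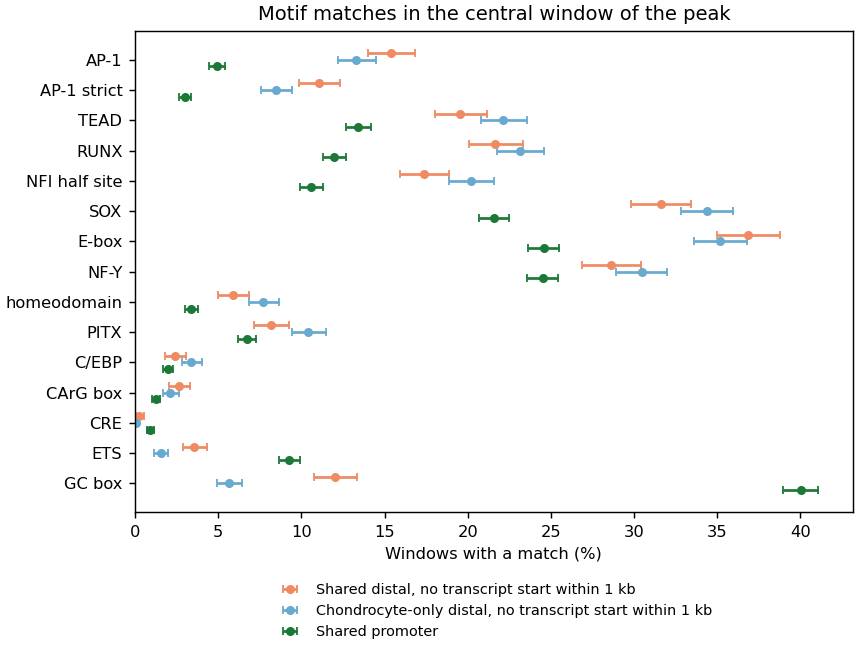
Share of 300 bp central windows (%) with a match on either strand for each motif, in the sets named in the legend; bars are exact 95% intervals. GC box matches were more frequent in shared than in chondrocyte-only peaks without a transcript start within 1 kb (12.02% against 5.64%), and the AP-1 shares there were 15.4% and 13.3%.

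Members made up from 18.4% (chromosome 1) to 27.4% (chromosome 4) of the distal replicate 1 peaks of a chromosome, and were spread over many genes. They were nearest to 2385 of 22208 protein-coding genes (10.7%), of which 1648 had 1 member, 477 had 2 and 260 had 3 or more. The nearest gene is a matter of position and does not show which promoter a region acts on. Chondrocyte-only peaks were nearest to 2302 genes, and 837 genes had both kinds. In replicate 2, the promoters of genes nearest to a member carried H3K27ac in 60.2% (58.1 to 62.3%) of cases, against 58.7% (56.0 to 61.4%) of genes with a chondrocyte-only peak and no member and 41.6% of all genes. Promoter H3K4me2 was at 74.5% (72.7 to 76.2%), 78.4% (76.2 to 80.5%) and 62.7%, and replicate 1 H3K27ac at 54.5% (52.5 to 56.5%), 57.9% (55.3 to 60.4%) and 41.6%. The genes with members were marked more often than all genes in these 3 lists, and for H3K4me2 their interval lay barely below that of the genes with chondrocyte-only peaks alone.

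The genes named here are the 10 with 7 or more members and 2 of the 11 tied at 6, those with the largest summed width of members. Irf2bp2, a transcriptional corepressor on chromosome 8, and 5930403N24Rik on chromosome 10 had 9 each. The 9 near Irf2bp2 spanned 199 kb, all overlapped H3K4me2, and ranked from 3.10% to 84.4% in replicate 1 and from 18.6% to 65.4% in fibroblasts. Zmiz1, a coactivator of the PIAS family, Tgfbr2, the type II TGF-beta receptor, and 1700001O22Rik had 8. Myc, Arid5b, a DNA-binding cofactor, Haao, an enzyme of tryptophan breakdown, C130026L21Rik and Ccnl1, a cyclin linked to splicing, had 7, and the zinc finger factor Klf6 and the chromatin remodeller Chd2 had 6. These are counts of replicate 1 peaks and not of separate regions. Near most of these genes, adjacent members shared a single fibroblast peak. Near 1700001O22Rik the shared fibroblast peaks were 4594 and 8138 bp wide. The promoters of 1700001O22Rik, Haao and C130026L21Rik had no H3K27ac peak in any of the 5 H3K27ac lists, although 8, 7 and 7 members were nearest to them.

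Myc, the growth-promoting transcription factor, had members over the longest span of these 12 genes. Its 7 members lay 52.1 to 583 kb downstream on chromosome 15, beside 10 chondrocyte-only peaks. The nearest (chr15:61869032-61872126), which overlapped the start of an annotated transcript, ranked 1.46% in replicate 1, 31.1% in fibroblasts, 17.8% in WT and 16.2% in the deletion chondrocytes. The farthest (chr15:62399489-62402260), whose centre is the printed Myc sequence, ranked 1.29%, 14.6%, 24.6% and 35.2% in the same order. Between them, the one 342 kb from the TSS (chr15:62158786-62161486) ranked 0.606%, 23.8%, 11.3% and 15.5%. The other 4 ranked from 31.3% to 59.6% in replicate 1, and 6 of the 7 overlapped H3K4me2. All 7 were therefore stronger within the replicate 1 list than within the fibroblast list, both of which the rule used. The medians over all 3573 members, 35.7% and 45.3%, went the same way.

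Tgfbr2, which starts TGF-beta signalling at the cell surface, had 8 members over 440 kb on chromosome 9, of which 7 overlapped H3K4me2. The highest in replicate 1 (chr9:116292495-116294290), 208 kb upstream, ranked 8.53% there, 23.7% in fibroblasts, 10.98% in WT and 9.71% in the deletion chondrocytes. The nearest, in an intron (chr9:116062115-116063703) ranked 40.4%, 80.4%, 31.2% and 37.7%. Of the other TGF-beta pathway genes with most members, the TGF-beta-induced factor Tgif1 had 6 and no chondrocyte-only peak, the inhibitory Smad6 and Smad7 had 6 and 4, and the members of Tgif1 ranked from 2.54% to 51.0% in replicate 1 and from 23.4% to 98.1% in fibroblasts.

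Col1a2, the alpha 2 chain of type I collagen and a major matrix gene of dermis, had 6 members 14.0 to 85.7 kb upstream on chromosome 6. The strongest in fibroblasts (chr6:4406378-4408537), 46.3 kb upstream, ranked 3.42% there, 13.7% in WT, 15.8% in the deletion chondrocytes and 16.0% in replicate 1, and held an AP-1 match. The 3 neighbouring members between 14.0 and 16.3 kb upstream shared a single fibroblast peak at 28.3% and a single WT peak at 10.9%. All 6 Col1a2 members were matched in replicate 2 and 5 overlapped H3K4me2. The Col1a2 promoter itself carried a peak in all 4 chondrocyte H3K27ac lists and none in the fibroblast list.

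Fos, Runx1, Chd2 and Klf6 gave further examples. Fos, a subunit of AP-1 that was picked after its values were seen, had 3 members 12.3 to 18.4 kb from its TSS and no chondrocyte-only peak, with replicate 1 ranks of 19.4% to 60.3% and fibroblast ranks of 51.0% to 71.4%. All 3 Fos members overlapped H3K4me2 and were matched in replicate 2, and the downstream one lay in an H3K4me2 peak ranked 0.279%. Of the 6 Chd2 members, the one 65.2 kb upstream (chr7:80751862-80754121) had 1 of the 5 highest replicate 1 scores among the members, at 0.0665%, and ranked 6.70% in fibroblasts. A neighbour (chr7:80759652-80763277) ranked 3.25% in fibroblasts, 2.05% in WT, 1.01% in the deletion chondrocytes and 8.34% in replicate 1, so the Chd2 locus held peaks high in all lists. Runx1, a runt-domain factor of blood and skeletal cells, had 5 members, the widest of which (chr16:92693012-92699097), 6086 bp, ranked 24.2% in replicate 1, 13.4% in fibroblasts, 1.69% in WT and 2.76% in the deletion chondrocytes. Klf6 had 6 members from 6.74 to 331 kb away, which ranked from 2.89% to 58.4% in replicate 1 and from 16.4% to 93.8% in fibroblasts.

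Gene lists were compared by the share of their genes nearest to a member, with 10.7% of all protein-coding genes as background. In the connective tissue matrix list 23 of 37 genes had one (62.2%, 44.8 to 77.5%), led by Col1a2 with 6, Col5a1, a fibril collagen, with 4, and fibronectin (Fn1) and the adhesive glycoprotein thrombospondin 1 (Thbs1) with 3 each. A chondrocyte-only peak was nearest to 19 of the 37 (51.4%, 34.4 to 68.1%), and 13 of the 37 had both kinds. Both shares count the same genes, so overlap of their intervals does not compare them. In the list of AP-1 and immediate early genes 18 of 32 had one (56.3%, 37.7 to 73.6%), led by Myc, Klf6, Ier5 with 5 and Klf4 with 3. In the same list 7 of 32 (21.9%, 9.28 to 39.97%) had a chondrocyte-only peak, and Ier5, a growth-factor-induced gene, had none. Of the 32 genes, 6 had both kinds, and here too the intervals do not compare the shares. A member away from transcript starts was nearest to 14 of the 32 (43.75%), against 7.84% of all protein-coding genes. In the cartilage list, of matrix genes and Sox genes, 5 of 29 genes (17.2%, 5.85 to 35.8%) had a member and 19 of 29 (65.5%, 45.7 to 82.1%) a chondrocyte-only peak, and the 5 were Pth1r, the receptor of parathyroid hormone-related protein, with 2 and Trps1, Chst11, Runx3 and Sox5 with 1 each. The cartilage genes Col2a1, Acan, Col9a1, Col11a1 and Sox9, named after their values were seen, had no member and 3, 3, 4, 6 and 2 chondrocyte-only peaks, while Col9a2, Col11a2, Sox6 and Matn1 had neither kind. For Sox9 the lack of a member depends on the rule. Its replicate 1 peak 161 kb upstream, at the deleted E160, overlapped fibroblast and WT peaks. That peak was left out because the deletion list, from cells without E160, had none there.

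Both kinds of peak were counted in the other lists in the same way, again on the same genes. A member was nearest to 26 of 47 mesenchymal transcription factors (55.3%), led by Runx1 with 5, Nfib with 4, and Tcf4 and Zfhx3 with 3, and a chondrocyte-only peak to 53.2%. In the actin and adhesion list 20 of 41 (48.8%) had a member, with Diap1, a formin, at 5 and Actn4, Cald1 and Lpp at 3, against 43.9%. The YAP and TEAD list had 11 of 24 (45.8%), with Vgll4 at 5, Tead1 at 4 and Lats2 and Dlc1 at 3, against 58.3%, and the TGF-beta list 15 of 34 (44.1%) against 41.2%. Of 29 genes of lineages absent from the cultures 3 (10.3%, 2.19 to 27.4%) had a member, namely Cdh5 with 2 and Epcam and Vav1 with 1 each, which was near the background. The lists were chosen with results of these data known and were not tested.

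**Figure D5:**
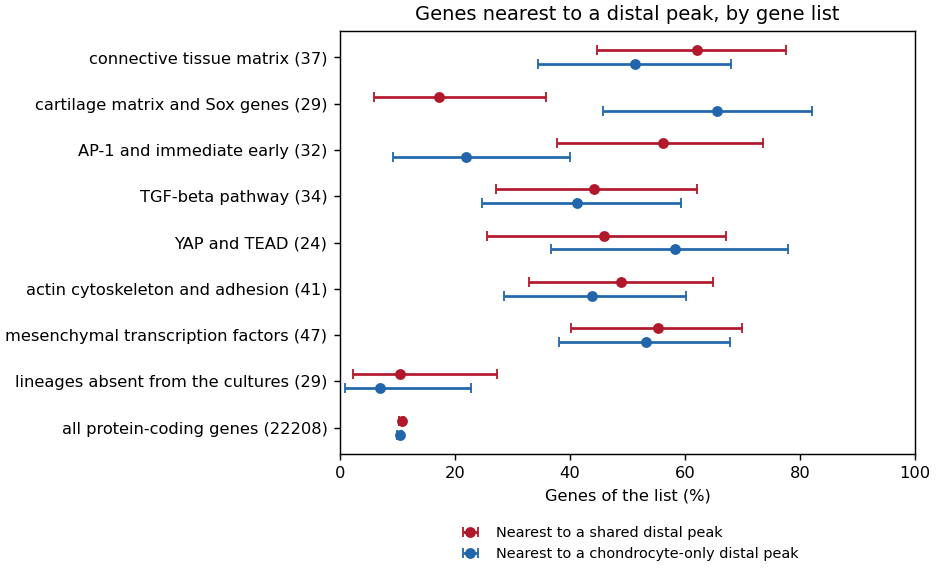
Share of the genes of each list (%, number of genes in brackets) that are nearest to at least 1 shared or chondrocyte-only distal peak, with exact 95% intervals. The cartilage list was at 17.2% for shared and 65.5% for chondrocyte-only peaks. The AP-1 and immediate early list was at 56.3% and 21.9%. Both shares of a list count the same genes, so overlap of their intervals does not compare them.

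Some members ranked high in the fibroblast list and low in replicate 1, or the reverse. Of the 3573, 169 (4.73%) stood more than 50 points higher in the fibroblast list and 317 (8.87%) in replicate 1. The 5 with the largest gap towards fibroblasts, near H3f3a, Cdk2ap1, N4bp2, 4933407C03Rik and Wdtc1, were intronic, and the H3f3a member, in a histone H3.3 gene, ranked 2.401% in fibroblasts, 95.1% in replicate 1, 3.09% in WT, 5.37% in the deletion chondrocytes and 9.77% in replicate 2. Its fibroblast peak was 2628 bp wide and overlapped 161 bp of the 501 bp member. The N4bp2 member ranked 0.607% in fibroblasts, 1.12% in WT, 1.13% in the deletion chondrocytes, 2.86% in replicate 2 and 87.5% in replicate 1. Its fibroblast peak was 2010 bp wide and overlapped 508 bp of the 639 bp member. At both, the low rank was that of replicate 1 and not of the other chondrocyte lists. The other ranks belong to partner peaks that can extend beyond the member, towards a promoter. Over all members, the fibroblast peak reached a TSS within 1 kb at 116 (3.25%) and the WT peak at 125 (3.50%). The 5 with the largest gap towards replicate 1 were near Gm10258, Atp10a, Auts2, Rasa3 and Fchsd2. Of these the Gm10258 member lay in an intron of Mecom, a zinc finger factor, overlapped an annotated transcript start, and ranked 1.81% in replicate 1 and 98.5% in fibroblasts. The member with the highest replicate 1 score, 3388 bp wide and 27.5 kb upstream of the splicing factor gene Cwc22 (chr2:77811973-77815360), ranked 0.0156% in replicate 1, 0.149% in replicate 2, 23.5% in fibroblasts, 47.5% in WT and 71.6% in the deletion chondrocytes. Its H3K4me2 peak ranked 0.0166%.

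In the deletion chondrocytes the members had narrower and lower peaks than in WT, as did other peaks. Fold enrichment was higher in WT at 3422 of the 3573 members (95.8%), at 92.4% of the chondrocyte-only peaks and at 97.6% of shared promoter peaks. The medians over members were 13.6 in WT and 8.92 in the deletion chondrocytes. With 1 library of each genotype and the direction present at nearly all peaks, genotype and library cannot be told apart. The deleted enhancers did not meet the rule. The replicate 1 peaks 161 and 309 kb upstream of Sox9, the master regulator of chondrocyte fate (chr11:112481763-112483651 and chr11:112333646-112335320), overlapped fibroblast peaks ranked 46.3% and 66.7% and WT peaks ranked 17.5% and 26.4%, and had no peak in the deletion list, so they were among the 493 distal peaks with fibroblast and WT partners only.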

How the data were processed

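The deposited peak lists of 6 ChIP-seq libraries were used as the authors made them. Per the study's methods the authors trimmed reads with fastp, mapped them to mm9 with Bowtie2 2.4.4 and called peaks per library with MACS2 2.2.4 against input. The replicate 1, H3K4me2 and fibroblast lists have the 5-column layout of earlier MACS releases and a lowest score of 50, against 13 to 20 in the others, so the caller may have differed and a missing peak need not mean the same in each list. They give a deposited score only, of unstated unit, whereas the replicate 2, WT and deletion lists also give the fold enrichment and the −log10 p and q that the authors' caller wrote. Scores were compared only as ranks within a list. Replicate 2 lies on GRCm38 coordinates although its label says mm9, and read depth is not in the lists.

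Overlap was 1 bp. Gene positions and sequence came from an mm9 annotation and genome, with protein-coding starts for the 1 kb limit. The text names 12 genes with most members (ties by summed width), the members extreme in score, width, rank difference, distance and lack of H3K4me2, those at the 1 kb limit, and up to 4 genes of each list. Peaks were handled in pandas 2.3.3 and numpy 2.4.6 under Python 3.11.15, intervals came from scipy 1.17.1, plots from matplotlib 3.10.9, the overlap was checked with bedtools 2.31.1, and overlap and motif counting were tested on simulated data. The members and lists were chosen with earlier results of these data known. The alternatives covered the overlap, the score limit, the TSS set and distance, merging, list omissions and the motif window.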

Additional observations from a re-analysis of the deposited data

How the results depend on the processing

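Of 51 alternatives 21 stayed within the spread or within 1.5 times the reported count and 30 moved. Requiring a 50% reciprocal overlap left 1287 members, of which 95.3% had H3K4me2 (chondrocyte-only 91.4%), with a median width of 1465 bp, a median distance of 24298 bp and 1110 nearest genes. The higher-scoring 50% of each list gave 1265, 95.7%, 1699 bp, 22967 bp and 1062. The median distance was 16264 bp with all transcript starts, 30648 bp with a 2 kb limit and 31773.5 bp with genes placed in both builds, the last chosen after seeing the data. Merging peaks gave 94.9%, 1550.5 bp and 29574.5 bp. With the H3K4me2 list reduced to the size of the replicate 1 list, H3K4me2 lay on 61.7% of members and 45.3% of chondrocyte-only peaks, and with 50% of the peak covered on 91.2% and 87.4%. AP-1 matches were in 43.0% and 41.5% of whole peaks, 8.84% and 8.76% of windows at the WT summit and 9.38% and 8.28% with the strict letters, and in 15.4% of members away from transcript starts, added after seeing the data. Replicate 2 matched 69.9% and 62.7% within 200 bp, and 76.5% of members within 20 kb of the TSS. Without chondrocyte replicate 1 the rule gave 4272 WT regions. Leaving out the deletion list gave 4066 members and leaving out WT 3578. No paired analysis was possible because no 2 groups shared 2 or more replicate numbers. Read depth is unknown, so absence of a peak is absence of a call.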
